A study of Sus scrofa with 36 samples.

Results

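The comparison set 4 ovariectomized pigs given bromocriptine, estrogen and progesterone together (BEP) against 4 intact, saline-treated sham pigs. The 8 arrays were chosen by their treatment labels from the 36 arrays of the series, and all 20792 probe sets were compared. Of these, 9149 carried a single gene symbol and stood for 6360 named genes. The comparison asks how far the mammary gland of BEP pigs resembled that of intact, sham-operated pigs. BEP pigs were supplied with both ovarian steroids, but had lost their ovaries and had prolactin secretion held down. Bromocriptine is a dopamine agonist that lowers prolactin secretion by the pituitary.

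All animals were female Yucatan miniature swine aged 5 months, before or around puberty. Sham pigs had an operation that spared the ovaries and then received saline for 13 days. BEP pigs lost their ovaries, received bromocriptine alone for 8 days, and received bromocriptine with estrogen and progesterone for the last 5 days. Other groups of 4 ovariectomized pigs served as reference points: B (bromocriptine throughout), BE (estrogen added), BP (progesterone added) and HEP, in which haloperidol replaced bromocriptine for the last 5 days beside both steroids. Haloperidol is a dopamine antagonist that raises prolactin secretion. Every animal was injected with BrdU 24 hours before the end. The sources used here do not give the steroid doses or the ovarian cycle stage of the sham pigs. BEP and sham differ in ovaries, drug and supplied steroids at once, so the contributions of these cannot be told apart in this comparison.

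Estrogen drives growth of the mammary ducts, partly through amphiregulin and through induction of the progesterone receptor, while progesterone drives side branching and the formation of lobules, and both reach most dividing epithelial cells indirectly through secreted signals. Prolactin acts through the kinase JAK2 and the transcription factors STAT5A and STAT5B, and its classical targets in this tissue are the milk protein genes. Many steroid-treated tissues also express enzymes that inactivate steroid hormones, such as sulfotransferases and hydroxysteroid dehydrogenases.

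Values are deposited RMA summaries read as log2, and levels of different genes are not set against each other because each probe set has its own scale. Array medians lay between 7.83 and 7.91, and the highest correlation between any pair of the 36 arrays was 0.984. Arrays carry no read depth, and precision depends on the number of animals and on the spread between them for each probe set. Some epithelial and adipocyte markers were bright in sham, with group means above the upper quartiles of the arrays (9.49 to 9.57). The luminal keratin KRT18 was at 11.6 ± 0.29 (SD, n = 4), the epithelial factor FOXA1 at 10.99 ± 0.05 and the adipocyte fatty acid carrier FABP4 at 12.3 ± 0.18. These genes alone do not establish the tissue label. The estrogen receptor ESR1 was below the lower quartile of its array in all 36 arrays, so its probe set said little. In tissue RNA, fewer cells of a type and less RNA per cell cannot be told apart. Changes below are log2 differences ± SE between group means from limma (n = 4 animals in each group), a gene was called at a Benjamini-Hochberg adjusted p under 0.05 over all probe sets, and fold changes are the same differences on the linear scale.

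Few genes passed between BEP and sham when all arrays counted equally. limma called 34 of 20792 probe sets (0.164%), 23 higher and 11 lower in BEP, and 32 of the 34 had groups that did not overlap. Over all probe sets, groups failed to overlap for 1507 (7.25%). Among the 6360 genes, each represented by its brightest probe set, 8 were called higher (0.126%) and 5 lower (0.0786%). The largest rises were in the steroid-inactivating enzymes SULT1E1 and HSD11B2, and the largest fall among called genes was in RAP1GAP, which switches off the small GTPase RAP1. By comparison, limma called 870 probe sets (4.18%) between B and sham, the same comparison without steroids, with 57 genes higher (0.896%) and 210 lower (3.3%). These comparisons share the sham animals, so their counts are given side by side only.

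The count of calls depended on the weighting of arrays and on single animals. With array weights, which count arrays far from their group for less, limma called 3652 probe sets, 2027 higher and 1625 lower, all 34 among them. Without BEP A it was 421 and without sham C it was 318, and all 34 probe sets were among the calls in both cases. Without sham A it was 13, without sham D 14, without BEP B 12, without BEP C 8 and without BEP D 18. Leaving out BP A, an array outside the comparison that feeds only the shared estimate of spread, gave 89 calls. At an unadjusted p under 0.05, 2942 probe sets (14.1%) differed, 1544 higher and 1398 lower. The B against sham count of 870 became 522 without sham A, 424 without sham D and 481 without B C.

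The size of the differences can be bounded. Both 95% confidence limits lay between -1 and 1 for 12833 probe sets (61.7%) and for 4414 genes (69.4%). Within -0.5 and 0.5 they lay for 1746 probe sets (8.4%). The median distance from an estimate to its limit was 0.589, and 822 probe sets had an estimated change of at least 1 in size, 513 higher and 309 lower, of which 31 were called. In the plot of all genes the median change is -0.04, and the called genes include RCL1 and RFWD2, whose changes are below 1 in size.

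**Figure D1:**
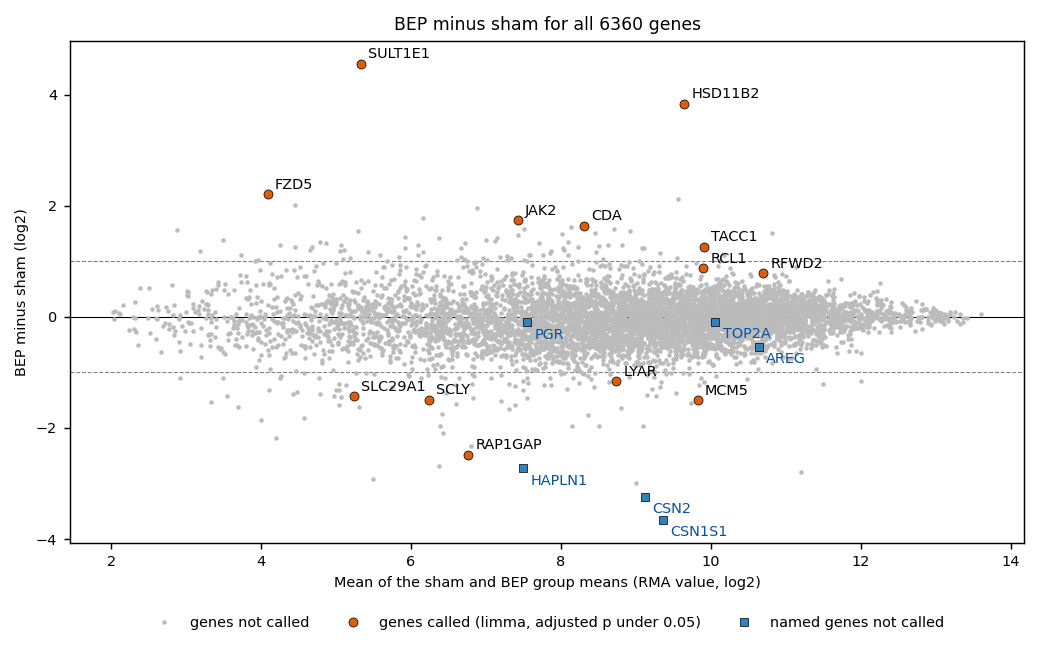
Difference between the BEP and sham group means (log2, vertical axis) against the mean of both group means (RMA value, log2, horizontal axis) for 6360 genes, 1 point per gene. Orange circles are the 13 genes called by limma, blue squares are 6 named genes that were not called, and dashed lines mark a change of 1 in either direction. SULT1E1 (4.56) and HSD11B2 (3.83) stand highest, and CSN1S1 (-3.65) and CSN2 (-3.24) stand lowest without being called.

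By whole-array distance BEP animals lay slightly farther from sham than sham animals lay from each other, and closer to each other than either (not tested). The root mean square difference over all probe sets averaged 0.730 between sham and BEP arrays (0.561 to 0.875, 16 pairs) and 0.694 between sham arrays (0.497 to 0.874, 6 pairs), but 0.601 between BEP arrays (0.496 to 0.731, 6 pairs). It averaged 0.865 between sham and B, 0.725 between sham and BE, and 0.601 between BEP and BE. By mean distance to each group, BEP A was nearest to the sham group, BEP B to BE, sham B to BE and sham C to HEP, while the other 4 arrays were nearest to their own group.

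HSD11B2 and SULT1E1 gave the largest rises of the comparison. HSD11B2 encodes the dehydrogenase that turns cortisol into inactive cortisone. Its level was 7.45, 8.04, 8.71 and 6.72 in sham animals A to D and 12.1, 10.7, 11.8 and 11.7 in BEP animals A to D. Every BEP animal lay well above every sham animal. The change was 3.83 ± 0.52, or 14.3-fold, with an adjusted p of 0.000251 in limma. The group means were 6.62 in B, 9.54 in BE, 7.22 in BP and 10.4 in HEP, so BEP was the highest of these. Against B the change was 4.94 ± 0.52 (adjusted p = 2e-06), and against BE it was 2.02, which did not pass (adjusted p = 0.192). HSD11B2 was called under each of 20 alternative analyses (adjusted p = 5e-06 to 0.0272).

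SULT1E1 is the sulfotransferase that inactivates estrogens by adding sulfate. It was dim in sham, at 3.56, 2.96, 2.30 and 3.41 in animals A to D, and at 5.97, 8.09, 7.74 and 8.66 in BEP animals A to D. All 4 BEP animals were above all sham animals, with BEP A the lowest of them. The fitted change was 4.56 ± 0.85 (adjusted p = 0.0141); the sham values lie below the lower quartile of their arrays, where the size of a change is poorly measured, so no fold is given. B, BE and HEP had means of 4.71, 5.56 and 4.78, between sham and BEP, while BP was at 2.24 in BP A and 4.08 to 6.21 in the others, and the difference between BEP and B did not pass (2.91 ± 0.85, adjusted p = 0.0586). The SULT1E1 call against sham was lost without BEP B, C or D (adjusted p = 0.0607 to 0.0650), and its adjusted p over 19 alternatives ran from 0.000154 to 0.0650.

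These enzymes were the only called members of the steroid metabolism list, in which 2 of 19 measured genes rose and none fell. The list median was -0.15 against -0.04 for all genes, and it ran from -0.18 to 0.10 over 20 alternatives, so the list had no common direction. HSD3B1, which makes progesterone from pregnenolone, was at 5.59 ± 0.26 (SD, n = 4) in sham and 6.75 ± 0.38 in BEP, with no overlap, and did not pass (1.16 ± 0.40, adjusted p = 0.193). HSD17B7, which can activate estrone and also serves cholesterol synthesis, was at 11.3 ± 0.27 in sham and 10.6 ± 0.14 in BEP (-0.64 ± 0.23, adjusted p = 0.210). The reverse enzyme to HSD11B2, HSD11B1, was at 10.5 ± 0.16 and 10.8 ± 0.20 (0.30 ± 0.25, adjusted p = 0.615).

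Of 16 measured genes of the progesterone response list, 2 rose (HSD11B2 and CDA) and none fell; 10 lay above 0 and 6 below, with a median of 0.22 against -0.04 for all genes. CDA, a cytidine deaminase of pyrimidine salvage, rose: its level was 7.96, 7.98, 6.59 and 7.44 in sham and 9.34, 8.49, 9.67 and 9.05 in BEP, animals A to D. No BEP animal overlapped with sham. The change was 1.64 ± 0.35, or 3.12-fold (adjusted p = 0.0355), and BEP also exceeded BE (adjusted p = 0.00525) and B (adjusted p = 0.000181). In BP, given progesterone without estrogen, the mean was 6.52, close to 6.72 in B.

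DEFB1, an antimicrobial beta-defensin, averaged 8.51 ± 0.46 (SD, n = 4) in sham and 10.6 ± 0.49 in BEP, with no overlap, and missed the threshold (2.12 ± 0.50, adjusted p = 0.0661). FAM3D, a secreted cytokine-like protein, was at 5.28 ± 0.22 and 7.06 ± 0.28, again with no overlap (1.78 ± 0.43, adjusted p = 0.0740). MAL, a membrane protein of apical transport, was at 6.44 ± 0.16 and 7.86 ± 0.73 (1.42 ± 0.44, adjusted p = 0.148), and PHGDH, which starts serine synthesis, at 8.06 ± 0.22 and 8.98 ± 0.48 (0.92 ± 0.26, adjusted p = 0.112). All 4 genes had every BEP animal above every sham animal. Over all probe sets, groups failed to overlap for 7.25%, and these 4 genes were chosen with earlier results known, so this is description only. A second, dimmer DEFB1 probe set went the other way without passing (-0.38 ± 0.59, adjusted p = 0.820), so the defensin result rests on a single probe set.

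The mean level of the progesterone response genes, each centred on its average over the 36 arrays, was 0.622 to 0.798 in BEP animals and -0.125 to 0.061 in sham animals, without overlap. HSD11B2 carried part of this: without it the scores were 0.428 to 0.634 in BEP and -0.014 to 0.136 in sham, still without overlap. The genes left include CDA, DEFB1, FAM3D, MAL and PHGDH, described above, so the score is no separate support for them. AREG and the inhibin subunit INHBB, also in the list, lay slightly lower in BEP (-0.54 ± 0.54 and -0.61 ± 0.33, adjusted p = 0.692 and 0.415). The glucocorticoid response list also had scores without overlap, at 0.034 to 0.158 in BEP and -0.368 to -0.149 in sham, but its sole called member of 20 was HSD11B2, and without that gene the scores overlapped (-0.154 to -0.005 in BEP and -0.331 to -0.132 in sham). FKBP5, a chaperone of steroid receptors, TSC22D3 and PER1 belong to both the progesterone and the glucocorticoid list. They differed from sham by 0.38 ± 0.28 (adjusted p = 0.567), 0.13 ± 0.19 (adjusted p = 0.803) and -0.01 ± 0.31 (adjusted p = 0.988). These lists share genes with each other, and they were drawn up with earlier results of these data known. Scores without overlap are therefore description only. Such separation was not confined to these lists. The endoplasmic reticulum chaperone list, with 0 called of 24 measured, had scores of -0.196 to 0.013 in BEP and 0.016 to 0.156 in sham. The skeletal muscle list described below separated as well.

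**Figure D2:**
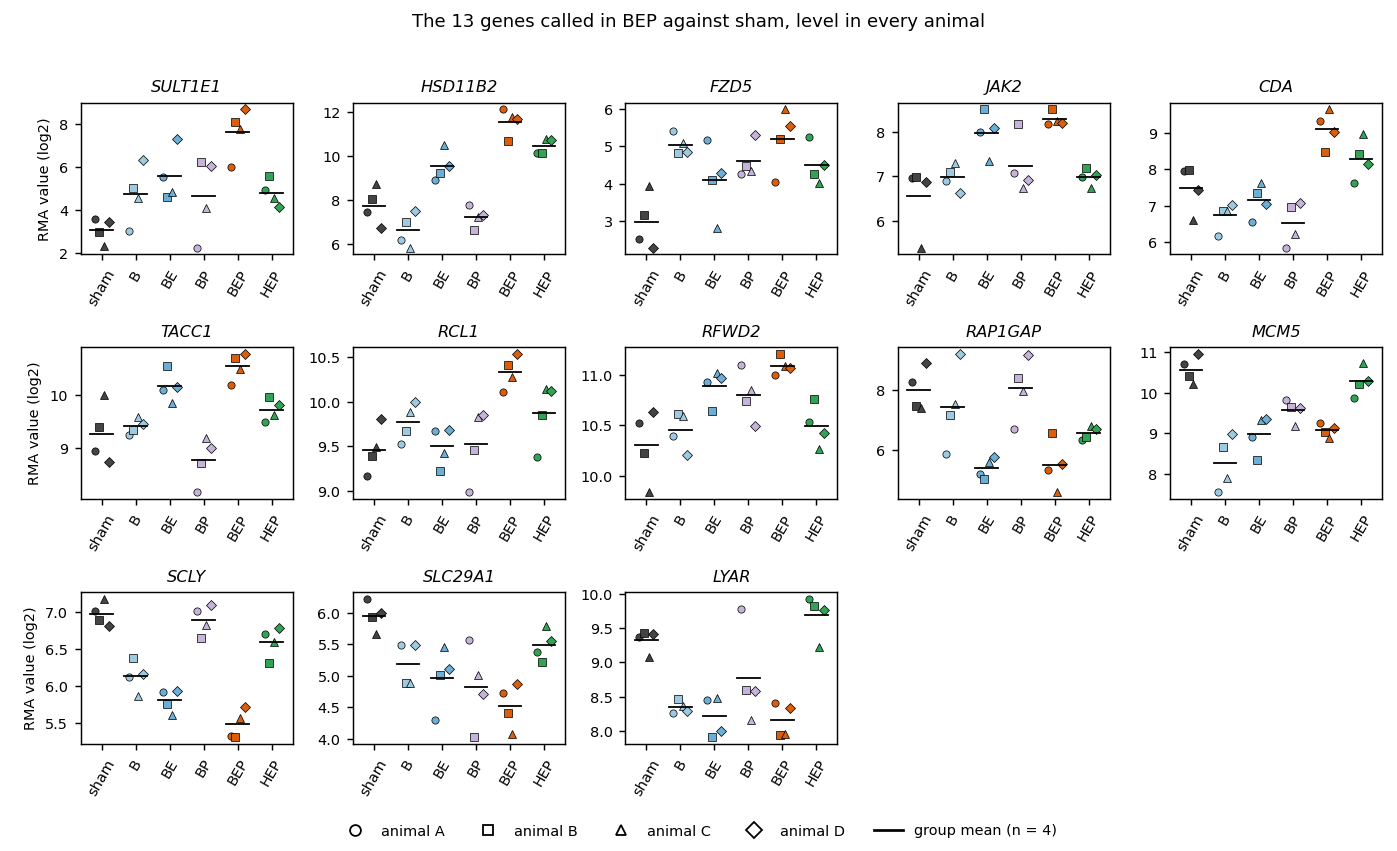
Level of the 13 called genes (RMA value, log2, vertical axis, scaled for each gene) in every animal of sham, B, BE, BP, BEP and HEP, with 1 panel per gene, 1 symbol per animal and a bar for the group mean (n = 4). In every gene called higher the BEP group has the highest mean of these 6 groups, by a small margin over B in FZD5. In SCLY, LYAR, MCM5 and SLC29A1, but not RAP1GAP, every HEP animal lies above every BEP animal.

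Signalling genes made up part of the remaining rises. JAK2, the kinase that carries signals from the prolactin and growth hormone receptors, was at 6.97, 6.99, 5.40 and 6.87 in sham and 8.19, 8.51, 8.26 and 8.20 in BEP. The BEP values were close together and all above sham, where animal C was far below the others. The change was 1.73 ± 0.34, or 3.33-fold (adjusted p = 0.0184), and a second JAK2 probe set gave 1.72 ± 0.43 without passing (adjusted p = 0.0902). JAK2 averaged 7.99 in BE and 6.99 in HEP, and BEP was higher than B (1.31 ± 0.34, adjusted p = 0.0285). It was the sole called member of 12 in the prolactin and STAT5 list, whose median was -0.13. STAT5A was at 9.697 ± 0.54 (SD, n = 4) in sham and 9.696 ± 0.21 in BEP, with confidence limits of -0.61 and 0.61 around a change of 0.00.

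FZD5, a receptor for WNT ligands, was at 2.526, 3.164, 3.950 and 2.301 in sham and 4.048, 5.202, 5.988 and 5.550 in BEP, with no overlap (2.21 ± 0.42, adjusted p = 0.0152). All these values are dim, below the lower quartile of their array in all 36 arrays. B was also above sham (2.06, adjusted p = 0.00388) and BEP minus B was 0.15 ± 0.42 (adjusted p = 0.916), with limits of -0.71 and 1.01. FZD5 was the sole called member of 11 measured genes of the WNT and RANK list, of 39 listed. NDP, a ligand of the related receptor FZD4, was at 5.30 ± 0.14 (SD, n = 4) in sham and 6.37 ± 0.71 in BEP, without overlap (1.07 ± 0.35, adjusted p = 0.164).

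The other rises were smaller. TACC1, a coiled-coil protein of the mitotic spindle, averaged 9.28 in sham and 10.5 in BEP (1.26 ± 0.26, adjusted p = 0.0336). RCL1, a nucleolar protein of ribosomal RNA processing, rose by 0.87 ± 0.19 (adjusted p = 0.0489), and the ubiquitin ligase RFWD2 rose by 0.78 ± 0.17 (adjusted p = 0.0363). In all 3 genes each BEP animal was above each sham animal. TACC1 and RFWD2 averaged 10.2 and 10.9 in BE, near their BEP levels of 10.5 and 11.1.

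Among the 5 genes that fell, SCLY was the most reproducible. SCLY encodes selenocysteine lyase, which recycles selenium. Its level was 7.03, 6.90, 7.18 and 6.82 in sham and 5.32, 5.32, 5.58 and 5.73 in BEP, animals A to D. A gap of more than 1 separated the lowest sham from the highest BEP animal. The change was -1.50 ± 0.23 (adjusted p = 0.00156), and it was called under each of 20 alternatives (adjusted p = 0.000135 to 0.0301). The BEP values all lie below the lower quartile of their arrays, where the size of a change is poorly measured, so no fold is given. B averaged 6.14 and BE 5.81, but BP averaged 6.90, level with sham at 6.98. HEP averaged 6.61, above BEP by 1.12 (adjusted p = 0.0124).

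LYAR, a nucleolar protein of growing cells, was at 9.37, 9.42, 9.08 and 9.41 in sham and 8.41, 7.94, 7.95 and 8.33 in BEP. The groups did not overlap, and the change was -1.16 ± 0.24 (adjusted p = 0.0321). B and BE averaged 8.35 and 8.22, while HEP averaged 9.68, above BEP by 1.52 (adjusted p = 0.00137). A dimmer LYAR probe set gave -0.36 ± 0.40 (adjusted p = 0.735).

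MCM5, a subunit of the helicase that opens DNA for replication, was at 10.70, 10.42, 10.22 and 10.96 in sham and 9.26, 9.02, 8.89 and 9.13 in BEP, with no overlap (-1.50 ± 0.32, adjusted p = 0.0372). It averaged 8.27 in B, 8.98 in BE and 10.3 in HEP, and the difference between HEP and BEP just missed the threshold (1.21, adjusted p = 0.0561). A second MCM5 probe set gave -0.75 ± 0.34 (adjusted p = 0.309). SLC29A1, an equilibrative nucleoside transporter, was below the lower quartile in 33 of 36 arrays and fell by 1.43 ± 0.27 (adjusted p = 0.0152), from 5.96 ± 0.23 (SD, n = 4) to 4.52 ± 0.35.

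RAP1GAP was at 8.26, 7.47, 7.42 and 8.88 in sham and 5.36, 6.58, 4.61 and 5.55 in BEP, with no overlap. The change was -2.48 ± 0.49 (adjusted p = 0.0184). BEP A, C and D lie below the lower quartile of their arrays, where the size of a change is poorly measured, so no fold is given. It averaged 5.42 in BE but 7.45 in B and 8.05 in BP, and BEP was lower than B (-1.92 ± 0.49, adjusted p = 0.0248). RAP1GAP was thus low in the bromocriptine groups that had received estrogen.

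Apart from HSD11B2 and SCLY, the 11 other called genes lost their call in 3 to 8 of the alternatives. Those that removed an animal were without sham A (for FZD5, CDA, TACC1, RCL1, RFWD2, LYAR, SLC29A1, MCM5 and RAP1GAP), sham B (RCL1, RFWD2, LYAR and MCM5) or sham D (those named for sham A except RFWD2), without BEP C (all 11), without BEP B (all but CDA and RAP1GAP) or without BEP D (all but SLC29A1). The adjusted p in those losses ran up to 0.219, for MCM5 and TACC1. None of the 11 reversed its sign.

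Of the 34 called probe sets, 19 carried no single gene symbol, 13 higher and 6 lower. They held some of the strongest differences: the probe set with the lowest adjusted p of the comparison was at 9.05 ± 0.44 (SD, n = 4) in sham, 11.98 ± 0.57 in BEP and 11.89 in HEP, but 9.47 in BE and 8.87 in BP (2.93 ± 0.37, adjusted p = 0.000108). Another rose by 3.13 ± 0.45 (adjusted p = 0.000535), from 6.60 ± 0.88 in sham to 9.73 ± 0.57 in BEP. The remaining pair of calls, on CELF2 and CNOT1, fell on probe sets that were not the brightest for their gene.

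The median of the cell cycle genes lay near sham level in BEP, but most single members were loosely bounded. Of 84 listed genes 47 were measured, 1 fell (MCM5) and none rose. The median was -0.14 and ran from -0.33 to 0.13 over 20 alternatives, with 15 members above 0 and 32 below. Both confidence limits lay between -1 and 1 for 16 of the 47, against 69.4% of all genes. For the other members a change of 1 in size was not excluded, so the lack of calls does not show equality with sham. In B against sham, 33 of the same 47 were lower, with a median of -1.62. Between BEP and B directly, where limma called 566 probe sets (2.72%), with 157 genes higher (2.47%) and 34 lower (0.535%), 23 of the 47 cell cycle genes rose and none fell (median 1.27). That count of 566 became 312, 354 and 330 without BEP B, C and D, and 867 without BP A.

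The topoisomerase TOP2A illustrates the group. It was at 9.61, 10.71, 10.05 and 10.05 in sham, 7.01, 8.27, 6.41 and 4.89 in B, and 9.52, 10.26, 10.31 and 9.97 in BEP. BEP and sham overlapped fully, and B lay below both. The BEP minus sham difference was -0.09 ± 0.64 with 95% limits of -1.40 and 1.23, so a change of 1 in either direction lies inside the limits. CCNB1, the mitotic cyclin, averaged 9.31 in sham, 5.91 in B and 9.34 in BEP (0.03 ± 0.68), and the replication clamp PCNA was at 10.8 ± 0.35 (SD, n = 4) and 10.8 ± 0.32, within limits of -0.50 and 0.51. RRM2, which makes deoxynucleotides, averaged 9.76 in sham, 5.97 in B and 8.77 in BEP, and the difference from sham did not pass (-0.99 ± 0.57, adjusted p = 0.439). HEP lay higher still: in HEP against BEP, where limma called 225 probe sets (1.08%), with 67 genes higher (1.05%) and 21 lower (0.33%), 5 of 47 cell cycle genes rose and none fell.

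Among estrogen response genes, 2 of 16 were lower in B than in sham and 2 of 16 higher in BEP than in B, with medians of -0.004 and 0.14. AREG (amphiregulin), which activates the EGF receptor, was at 11.15, 11.24, 10.24 and 11.02 in sham, 5.99, 8.25, 6.44 and 7.18 in B, and 10.08, 10.02, 10.69 and 10.67 in BEP. BEP and sham overlapped, and every B animal was below both groups. BEP minus sham was -0.54 ± 0.54 (adjusted p = 0.692) and BEP minus B was 3.40 ± 0.54, or 10.6-fold (adjusted p = 0.000455). BP, with progesterone alone, was at 6.66 to 7.21 in animals B to D and at 9.56 in BP A.

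PGR, the progesterone receptor, averaged 7.60 ± 0.63 (SD, n = 4) in sham, 5.24 ± 0.98 in B, 9.23 ± 0.65 in BE and 7.497 ± 0.78 in BEP. BEP minus sham was -0.10 ± 0.53 (limits -1.18 and 0.98), and BEP minus BE was -1.73 without passing (adjusted p = 0.546). Of 16 measured estrogen response genes, none was called between BEP and sham by limma, 1 passed at an unadjusted p under 0.05, and the median was 0.07. OVGP1, an oviductal glycoprotein that responds to estrogen, averaged 8.10 in sham, 6.44 in B, 10.3 in BE and 7.91 in BEP, and it was lower in BEP than in BE (-2.39, adjusted p = 0.0135). Between BEP and BE limma called 31 probe sets (0.149%), with 4 genes higher (0.0629%) and 5 lower (0.0786%), and this count was 16 and 18 without BE B and D and 20 and 14 without BEP B and C.

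The matrix genes that were low in B were also near sham in BEP, with an exception. Of 37 measured fibroblast and matrix genes none was called between BEP and sham by limma (7 at an unadjusted p under 0.05, median 0.13), 6 were lower in B than in sham, and 4 were higher in BEP than in B. The glycoprotein TNC averaged 10.9 ± 0.57 (SD, n = 4) in sham, 8.26 ± 0.54 in B and 11.1 ± 0.53 in BEP (BEP minus sham 0.22 ± 0.50). LOXL1, which crosslinks elastin, averaged 11.6 ± 0.22, 10.3 ± 0.31 and 11.6 ± 0.13, with limits of -0.48 and 0.39 around the BEP minus sham difference of -0.04. The proteoglycans VCAN and BGN differed from sham by 0.39 ± 0.30 and -0.14 ± 0.26. Other VCAN probe sets gave 0.42 to 1.48 without passing, the largest on a dimmer probe set (1.48 ± 0.56, adjusted p = 0.230).

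HAPLN1, which links hyaluronan to proteoglycans, was the exception. It was at 9.23, 9.20, 7.75 and 9.27 in sham and 6.14, 6.21, 5.04 and 7.15 in BEP, with no overlap, and at 3.56 to 4.49 in B and 9.30 to 10.5 in BE. BEP thus lay between B and sham. BEP minus sham was -2.73 ± 0.69 and missed the threshold (adjusted p = 0.0919), and it passed without sham C (-3.10, adjusted p = 0.0322) or without BP A (adjusted p = 0.0229), over a range of 0.000507 to 0.295 in 20 alternatives. BEP minus BE passed (-3.73, adjusted p = 0.00829). A dimmer HAPLN1 probe set gave -2.35 ± 0.64 (adjusted p = 0.101).

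**Figure D3:**
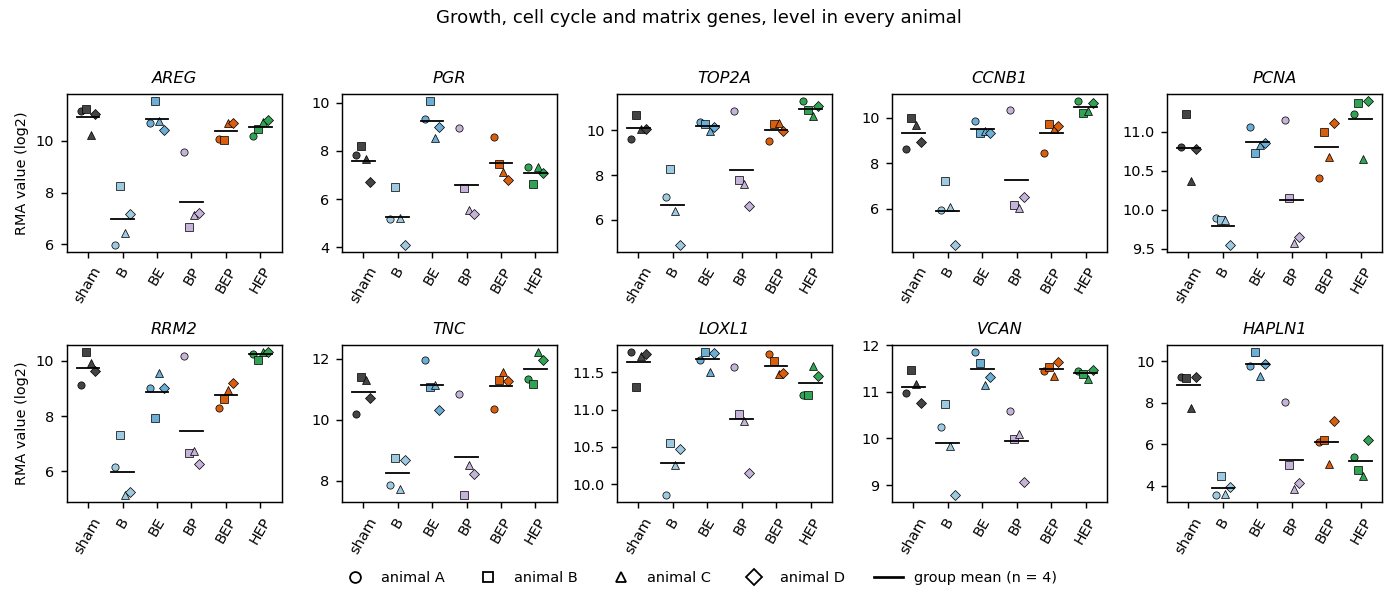
Level of 10 growth, cell cycle and matrix genes (RMA value, log2, vertical axis, scaled for each gene) in every animal of sham, B, BE, BP, BEP and HEP, with 1 symbol per animal and a bar for the group mean (n = 4). In AREG, TOP2A and TNC the BEP and sham animals overlap and the B animals lie below both, while in HAPLN1 every BEP animal lies below every sham animal. BP A lies above the other BP animals in several panels.

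The list plot sets these groups beside the comparison without steroids. Of 34 gene lists, 28 had no called member between BEP and sham, and in 7 lists fewer than 50% of the members were measured. Genes of oxidative phosphorylation (38 measured) and of the cytosolic ribosome (58 measured) had medians of -0.08 and -0.01 with 37 and 56 members within limits of -1 and 1, and none was called.

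**Figure D4:**
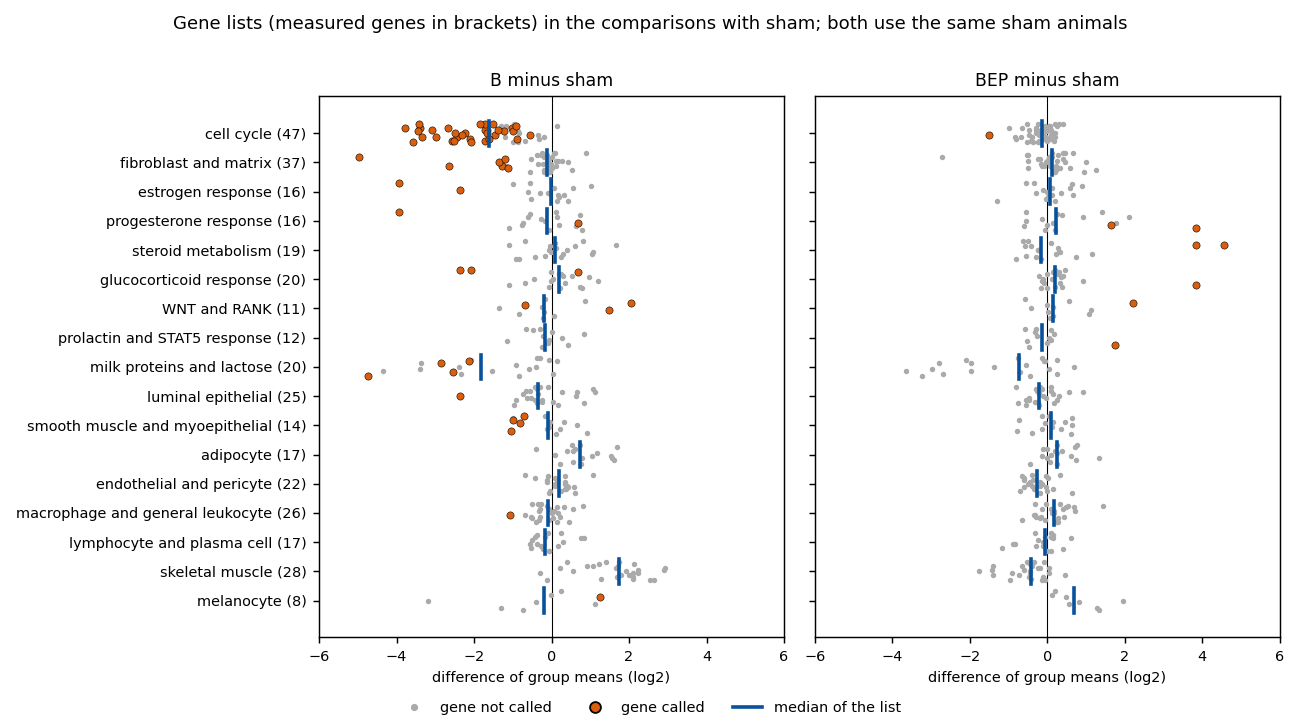
Difference of group means (log2, horizontal axis) for the measured genes of 17 lists, 1 point per gene, in B minus sham (left) and BEP minus sham (right); orange points are genes called by limma and blue bars are list medians. Both panels use the same sham animals. Cell cycle genes have a median of -1.62 on the left and -0.14 on the right, and the called genes of the steroid metabolism list appear on the right alone.

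Milk genes differed greatly between BEP animals, and none of the 20 measured passed in limma (5 at an unadjusted p under 0.05). CSN2, beta-casein, was at 10.79, 10.30, 10.88 and 10.98 in sham but at 11.15, 9.97, 3.80 and 5.09 in BEP animals A to D. BEP A lay just above the sham animals, BEP B somewhat below them, and BEP C and D far below. The mean difference was -3.24 ± 1.36 (adjusted p = 0.278), with limits of -6.02 and -0.46. CSN1S1, alpha-S1-casein, showed a similar split, at 11.1, 10.3, 11.7 and 11.6 in sham and 11.2, 9.96, 4.33 and 4.66 in BEP (-3.65 ± 1.30, adjusted p = 0.203). Without BEP A the CSN1S1 difference was -4.87 and passed (adjusted p = 0.0444, over a range of 0.0121 to 0.535 in 20 alternatives), and the list then had 2 members called lower.

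CSN3, WAP and LALBA, further milk proteins, had differences of -2.99 ± 1.46, -2.10 ± 1.51 and -1.38 ± 1.91, none of which passed. The mean centred level of the milk list ran from -2.438 to 0.061 in BEP and from -0.597 to 0.164 in sham, against -3.379 to 0.433 in B. The list median was -0.74. The phosphate transporter SLC34A2, abundant in lactating epithelium, was lower in every BEP animal (3.58 to 5.85) than in every sham animal (6.96 to 8.31), but did not pass (-2.68 ± 0.83, adjusted p = 0.142). HEP, with the same steroids but haloperidol, averaged 8.79 for SLC34A2, above BEP (3.76, adjusted p = 0.0199), and 11.3 for CSN2, where the difference from BEP did not pass (3.76, adjusted p = 0.181). PAEP, a whey protein gene in pigs, was at 12.6 ± 0.39 (SD, n = 4) in sham and 9.80 ± 1.76 in BEP, without overlap (-2.80 ± 0.79, adjusted p = 0.111).

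**Figure D5:**
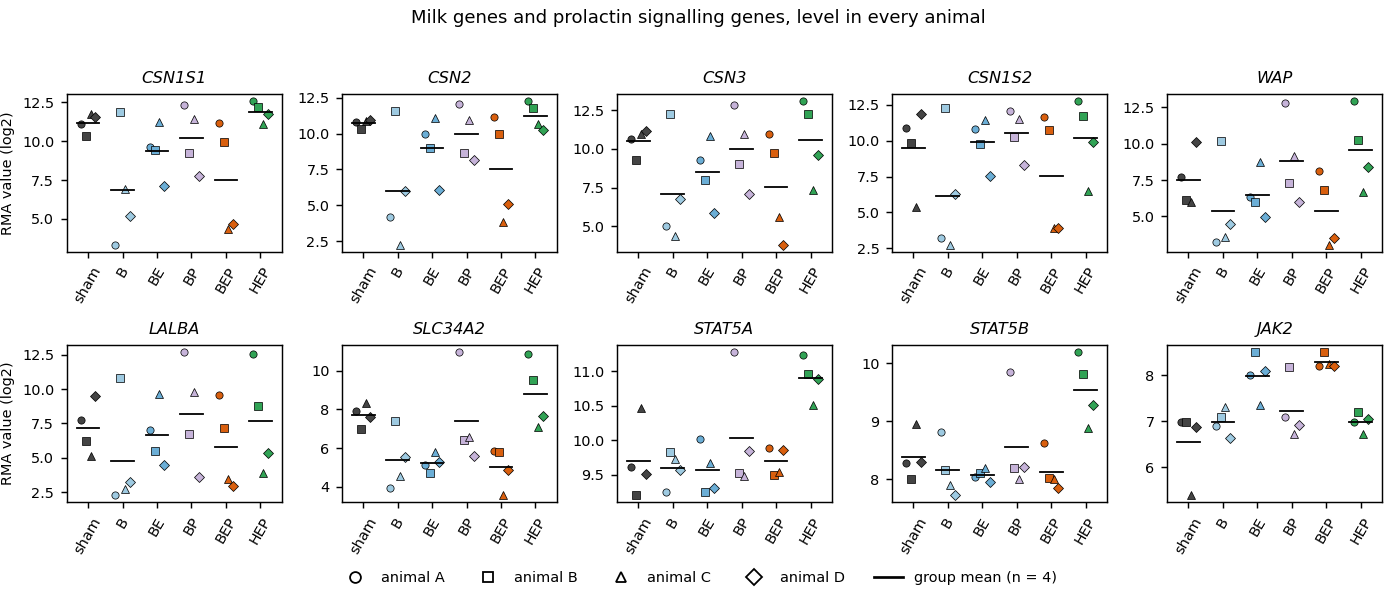
Level of 7 milk genes and of STAT5A, STAT5B and JAK2 (RMA value, log2, vertical axis, scaled for each gene) in every animal of sham, B, BE, BP, BEP and HEP, with 1 symbol per animal and a bar for the group mean (n = 4). For the caseins CSN1S1 and CSN2, BEP A and B lie near the sham animals and BEP C and D near the lower end, while STAT5A overlaps between sham and BEP.

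Markers of cell types showed no called difference, but their levels differed in places. The luminal epithelial list had 17 of 25 members below 0 and a median of -0.21, with centred levels of -0.203 to 0.345 in sham and -0.253 to 0.048 in BEP; FOXA1, a partner of the estrogen receptor, was at 10.99 ± 0.05 (SD, n = 4) in sham and 10.17 ± 0.21 in BEP without overlap (-0.82 ± 0.37, adjusted p = 0.316). Skeletal muscle markers were lower in 25 of 28 members, and their centred level ran from -1.171 to -0.726 in BEP and from -0.631 to -0.038 in sham, without overlap; none passed (0 at an unadjusted p under 0.05). Endothelial and pericyte markers lay below 0 in 18 of 22 (median -0.27; centred level -0.428 to -0.121 in BEP and -0.237 to 0.266 in sham). Adipocyte markers lay above 0 in 12 of 17 (median 0.24), with the adipokine ADIPOQ at 1.33 ± 0.58 (adjusted p = 0.290) and FABP4 at 0.11 ± 0.16, within limits of -0.22 and 0.43. Among 26 macrophage and leukocyte markers 16 lay above 0 and 10 below (median 0.18), and their centred levels overlapped (-0.096 to 0.161 in BEP and -0.235 to 0.139 in sham). Their largest difference was in PTPRC, the common leukocyte antigen, at 5.21 ± 0.34 in sham and 6.64 ± 0.54 in BEP, without overlap (1.44 ± 0.35, adjusted p = 0.0788).

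All 8 measured melanocyte markers were higher in BEP (median 0.69), yet their centred level spanned -1.735 to 1.239 in sham and -1.224 to 1.447 in BEP, which overlap. The B group mean for muscle genes rested on B A, whose centred muscle level was 6.074, and removing that array left 40 calls between BEP and sham. The share that the makeup of the tissue has in the differences above was not tested.

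Of the hormone axis genes, the growth hormone receptor GHR was at 6.14 ± 0.81 (SD, n = 4) in sham and 7.21 ± 0.69 in BEP (1.07 ± 0.48, adjusted p = 0.305), IGF1 differed by 0.45 ± 0.27 (adjusted p = 0.461), and the oxytocin receptor OXTR by 0.63 ± 0.50 (adjusted p = 0.595). STC1, stanniocalcin, a secreted regulator of mineral transport, averaged 9.86 in sham, 10.9 in B, 8.58 in BE and 8.56 in BEP, and it was lower in BEP than in B (-2.34 ± 0.59, adjusted p = 0.0241) but not called against sham (-1.30 ± 0.59, adjusted p = 0.312). Among lipid genes ELOVL6, a fatty acid elongase, differed from sham by 0.21 ± 0.42 and PNPLA3, a lipase, by 0.08 ± 0.73; HEP was lower than BEP in both (-2.17, adjusted p = 0.00838, and -2.87, adjusted p = 0.0453). Of 57 genes chosen for description whether or not they passed, 49 were measured, 4 were called and 9 had both limits within -1 and 1.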

How the data were processed

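The deposited values are log2 probe set summaries that the authors made with RMA, per the submitters' processing notes; no software version is given in the sources used, and the labels do not name the base of the logarithm, which was read as log2 from the range of the values (1.552 to 13.743). Labels give 1 porcine Affymetrix array per pig. Nothing further was normalized. Of 20792 probe sets, 9149 had 1 gene symbol, 178 several and 11465 none; where several probe sets carried the same single symbol, the brightest on average stood for the gene, and 9054 of the 9149 had a gene identifier in the reference table, 0 with another current symbol. Sequences and genome positions were not used here.

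limma 3.58.1 (R 4.3.3, statmod 1.5.0) fitted 9 group means to all 36 arrays (27 residual and 4.16 prior degrees of freedom, eBayes, two-sided). P-values were adjusted by Benjamini and Hochberg within each of 5 comparisons: BEP minus sham, B minus sham, BEP minus B, BEP minus BE and HEP minus BEP. Named genes were the called genes of largest change (at most 15 each way), up to 3 called members of each of 34 lists, and 57 fixed genes; PAEP, PTPRC, HSD3B1, HSD17B7, HSD11B1, NDP, INHBB, BGN, FKBP5, TSC22D3, PER1, CELF2 and CNOT1 were added after their values were seen. The comparison, the lists and the genes were chosen with earlier results of these data known. The sources used do not say whether the letters A to D of the titles link animals of different groups, and the main fit did not pair them. Deviations of same-letter sham and BEP arrays correlated at 0.211, 0.206, -0.106 and -0.232. Those of other letters ran from -0.283 to 0.375. So few arrays cannot decide whether the letters link animals. Alternatives are listed in the closing section; the fits without B A and the list scores without HSD11B2 were added after seeing the data. Plots were drawn in Python 3.11.15 (pandas 2.3.3, matplotlib 3.10.9).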

Additional observations from a re-analysis of the deposited data

Results flagged for a closer look

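In 6 of 116 groups of 4 animals examined for the named genes, a single animal stood far from the other 3, and chance alone gives about 1 in 20 such groups. In sham C, JAK2 was at 5.395 (the others 6.867 to 6.992), LYAR at 9.08 (9.366 to 9.422) and HAPLN1 at 7.748 (9.199 to 9.269). In sham B, LOXL1 was at 11.304 (11.72 to 11.777). In BEP A, CCNB1 was at 8.461 (9.526 to 9.742) and FAM3D at 7.473 (6.895 to 6.936). Without sham C the change of JAK2 stayed past the threshold.

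Of 116 differences examined for the named genes, 17 passed in limma between BEP and a related group. Over all 6360 genes, limma called 4 higher (0.0629%) and 5 lower (0.0786%) in BEP minus BE. In HEP minus BEP it called 67 higher (1.05%) and 21 lower (0.33%). The named genes were chosen with earlier results of these data known, so their count is description only. Adding progesterone to estrogen under bromocriptine (BEP minus BE) went with higher DEFB1 (2.57, adjusted p = 0.0135), FAM3D (2.39, adjusted p = 0.00651) and CDA (1.99, adjusted p = 0.00525). In the same comparison OVGP1 (-2.39, adjusted p = 0.0135), GSTA1 (-1.84, adjusted p = 0.00147), GHRL (-1.90, adjusted p = 0.00167), LRRC43 (-3.55, adjusted p = 0.000119) and HAPLN1 (-3.73, adjusted p = 0.00829) were lower.

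Replacing bromocriptine by haloperidol beside both steroids (HEP minus BEP) went with higher PHGDH (1.41, adjusted p = 0.00580), STAT5A (1.20, adjusted p = 0.0384), STAT5B (1.42, adjusted p = 0.0313), LYAR (1.52, adjusted p = 0.00137), SCLY (1.12, adjusted p = 0.0124) and SLC34A2 (3.76, adjusted p = 0.0199). ALAS2 (-3.04, adjusted p = 0.00943), ELOVL6 (-2.17, adjusted p = 0.00838) and PNPLA3 (-2.87, adjusted p = 0.0453) were lower.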

How the results depend on the processing

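For BEP against sham, the 34 calls (23 higher, 11 lower) stayed within 1.5 times under 8 alternatives: without dim probe sets (28), a second quantile normalization (31), median centring (36), a variance trend with robust moderation (40), the letter as a replicate block (40 as a fixed term, 43 as a random term), a required change of 1 (31), and, added after seeing the data, without B A (40). With array weights 3652 were called (2027 higher, 1625 lower), with 1 probe set per gene 17 (10 and 7), with only the compared groups in the fit 21 (12 higher), without BP A 89 (51 and 38), and without BP A and B A together 113 (58 and 55). Leaving out each animal gave 8 to 421 calls (6 to 264 higher, 2 to 157 lower). The block changed the call of no named gene, and 2 of the 8 arrays correlated best with their own letter.

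The other counts moved by over 1.5 times as follows. With array weights they were 2709 (B minus sham), 1185 (BEP minus B), 121 (BEP minus BE) and 2146 (HEP minus BEP). With 1 probe set per gene they were 299, 222, 9 and 137, and with only the compared groups 249 (B minus sham), 338 (BEP minus B) and 455 (HEP minus BEP), while BEP minus BE stayed within that margin (23). Without dim probe sets BEP minus BE had 13, and without BP A BEP minus B had 867 and HEP minus BEP 646. Leaving out each animal gave 424 to 1276, 312 to 867, 14 to 35 and 58 to 646. Counts of probe sets within limits of 1 were 4433 with 1 probe set per gene, and 1746 within 0.5. The causes of these shifts were not tested. Some of the fits held fewer probe sets or animals. No named gene that was called changed its sign, and HSD11B2 and SCLY kept their call throughout.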
